A study of Mus musculus with 8 samples.

Results

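The genes described here encode the calcium/calmodulin-dependent protein kinases of Neuro2a cells, an established mouse neuroblastoma line from the AJ strain. They are the CaMKII isoforms Camk2a, Camk2b, Camk2d and Camk2g, the CaMKI isoforms Camk1 and Camk1d, Camk4, and the upstream kinases Camkk1 and Camkk2. Of the 9 genes, 8 are measured by a transcript cluster that carries their symbol alone, among 19938 such genes and 35556 clusters on the array. The signal of Camkk1 was not analysed here, and only its promoter window was read. Each of the 8 has 1 such cluster, and all 8 gene numbers were found in RefSeq (mouse, GRCm38.p6). The family was chosen by its differences between the same arrays described here, so its own differences are a description and carry no test.

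The comparison set 4 arrays from anchorage dependent (AD) cultures against 4 from anchorage independent (AI) cultures. AD cells grew attached, in DMEM with 10% fetal bovine serum, antibiotics and glutamine. AI cells grew detached as tumorspheres in NeuroCult neural stem cell medium with proliferation supplements. To this medium were added heparin (2 µg/ml) and the growth factors EGF, at 20 ng/ml, and bFGF, at 10 ng/ml. No gene was altered in either phenotype, and both come from 1 cell line. Attachment and medium differ together, so their parts in any difference cannot be told apart. The labels name the replicates biological and the methods speak of repeated hybridizations, so the spread between arrays may be partly technical.

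These kinases are kept inactive by a part of their own chain until calcium-loaded calmodulin binds and pulls it away. CaMKII subunits join into large ring-shaped assemblies in which neighbours phosphorylate each other, so that activity can outlast the calcium signal. The alpha and beta isoforms are the abundant forms of brain, beta also binds actin filaments, and the delta and gamma isoforms are found in most tissues. CaMKI and CaMKIV form a separate cascade, since they reach full activity only after a CaMK kinase phosphorylates them, and CaMKIV acts in the nucleus on factors such as CREB.

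Array values are log2 signals, and the median of all clusters lay between 5.82 and 5.92 in AD arrays and between 5.92 and 5.99 in AI arrays. All 8 kinases lay above the median of every array. Signals of different probe sets have no common scale, so levels are compared between arrays and not between genes. A cluster is called when the adjusted p of limma with Benjamini-Hochberg adjustment is under 0.05 and the phenotypes differ at least 1.5-fold, as holds for 3.93% of all clusters. AD replicate 4 had the lowest array weight in limma, 0.35 against 0.772 to 1.76 for the other arrays, and results that rest on it are given with and without it. Of all called clusters, 64.5% were lower in AD cells, and 47.0% once the array medians had been set equal (median centring). Markers of sympathetic neuroblastoma cells, such as Phox2a, Dbh and Mycn, were above the array median in all arrays for 15 of 16 genes measured. In bulk RNA, fewer cells of a type and less RNA per cell cannot be told apart.

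Promoter windows of RefSeq (GRCm38.p6, 250 bases before to 50 after a start) are at hand for 6 of the 9 genes. Camk2a, Camk2g and Camk4 have none, so nothing below covers their promoters. The windows of Camk2b, of the close relative Camkv and of Camk2d are shown because the first and second genes were called higher in AD cells and the third was not called. Capitals mark the GC box GGGCGG on either strand, a motif bound by Sp family factors. Camk2b lies on chromosome 11, minus strand (chr11:6065699-6065998), Camkv on chromosome 9, plus strand (chr9:107935670-107935969), and Camk2d on chromosome 3, plus strand (chr3:126596701-126597000).
Camk2b: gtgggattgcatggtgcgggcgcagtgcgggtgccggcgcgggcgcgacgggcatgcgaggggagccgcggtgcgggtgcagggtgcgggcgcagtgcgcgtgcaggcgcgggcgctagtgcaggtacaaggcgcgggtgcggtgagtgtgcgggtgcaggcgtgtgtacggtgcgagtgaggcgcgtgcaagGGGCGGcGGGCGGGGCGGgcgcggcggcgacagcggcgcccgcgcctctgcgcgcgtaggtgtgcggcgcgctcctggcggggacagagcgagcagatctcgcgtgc
Camkv: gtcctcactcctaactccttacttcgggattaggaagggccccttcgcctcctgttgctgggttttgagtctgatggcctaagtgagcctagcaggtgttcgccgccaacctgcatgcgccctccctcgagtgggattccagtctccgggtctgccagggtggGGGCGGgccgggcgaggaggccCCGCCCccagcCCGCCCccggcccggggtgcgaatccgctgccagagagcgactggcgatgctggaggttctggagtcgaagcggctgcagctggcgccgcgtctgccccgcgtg
Camk2d: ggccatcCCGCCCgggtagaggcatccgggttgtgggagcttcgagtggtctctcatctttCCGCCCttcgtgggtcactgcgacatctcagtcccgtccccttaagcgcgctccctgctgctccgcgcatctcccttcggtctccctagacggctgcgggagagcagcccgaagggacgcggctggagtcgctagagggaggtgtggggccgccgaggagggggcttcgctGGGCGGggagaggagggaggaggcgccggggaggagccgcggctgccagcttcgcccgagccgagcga
Each of the 3 windows held 3 GC boxes, as did that of Camkk1 and 1 of the 2 windows of Camk1d. The boxes of Camk2b lie in a short stretch, and 2 of them share a base. Of 32851 windows, 35.7% held at least 1. The Camk2b window had 51 CpG dinucleotides, more than 99.3% of all windows, and 77.3% of its bases were G or C. Camk2d had 31 CpG and Camkv 25, against a median of 7. The E-box CANNTG, which occurs in 72.3% of windows, was found 2 times in Camkv and not in Camk2b or Camk2d, and 4 times in Camk1. The full cAMP response element TGACGTCA (1.79% of windows) was in none of the member windows, and its core TGACG (20.8%) was in those of Camk1 and Camkk1, once in each. The Myc E-box CACGTG, itself an E-box, was in none of them (7.15% of windows), and CCAAT (37.4%) was in those of Camkk1, Camkk2 and 1 of the 2 windows of Camk1d. Motifs were read on both strands, and a match is a description of the letters only.

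Camk2a, the alpha isoform of CaMKII, was the kinase gene with the largest difference, and it was lower in AD cells. In AD replicates 1 to 4 its signal was 7.50, 7.52, 7.53 and 7.82 log2, and in AI replicates 1 to 4 it was 8.84, 8.99, 8.89 and 8.95 log2. All AI arrays lay above all AD arrays, and AD replicate 4 was the AD array nearest to the AI arrays. The means were 7.59 ± 0.15 log2 for AD and 8.92 ± 0.07 log2 for AI (± SD over 4 arrays), which is 2.51-fold higher in AI cells. The log2 difference of AD minus AI was -1.33 (standard error 0.08), the 42nd most negative among the 19938 genes. The array gives 1 value for the probes of a gene, so that the kinase and the shorter anchoring protein made from the same gene are not separated.

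Camk2b, the beta isoform, differed in the opposite direction. Its signal was 7.28, 7.23, 7.27 and 7.55 log2 in AD replicates 1 to 4. In AI replicates 1 to 4 it was 6.64, 6.68, 6.69 and 6.68 log2. The phenotypes did not overlap, and the AI arrays spread over 0.041 log2. The means were 7.33 ± 0.15 log2 for AD and 6.67 ± 0.02 log2 for AI (± SD over 4 arrays), a 1.58-fold difference and a log2 difference of 0.66 (standard error 0.07). Without AD replicate 4 the log2 difference was 0.58, just under the 1.5-fold limit, and Camk2b was then not called. Camk2a without that array had a log2 difference of -1.40.

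**Figure D1:**
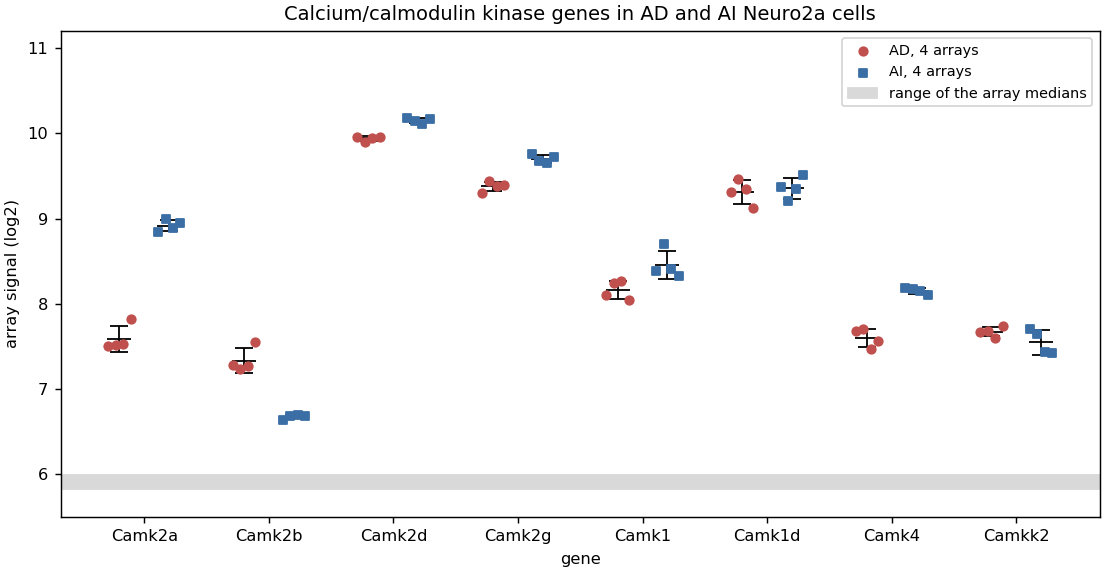
Array signal (log2, vertical axis) of the 8 measured kinase genes (horizontal axis) in AD arrays (circles) and AI arrays (squares), with means and SD in black and the range of the array medians as a grey band. Camk2a is higher in AI arrays, at 8.84 to 8.99 log2 against 7.50 to 7.82, and Camk2b is lower there, at 6.64 to 6.69 against 7.23 to 7.55.

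The balance of the alpha and beta isoforms was taken as the log2 signal of Camk2a minus that of Camk2b in the same array. It was 0.22, 0.28, 0.26 and 0.27 log2 in AD replicates 1 to 4 and 2.19, 2.30, 2.21 and 2.26 log2 in AI replicates 1 to 4. No array of one phenotype came within 1.91 log2 of an array of the other. The mean balance was 0.26 ± 0.03 log2 for AD and 2.24 ± 0.05 log2 for AI (± SD over 4 arrays). The balance thus shifted 3.96-fold toward Camk2a in AI cells, a difference of 1.98 log2 (standard error 0.03). That standard error is taken from the balance values alone, while those of single genes come from limma, so they differ in kind. The absolute size of the balance depends on the probe sets and does not give the ratio of the transcripts. A shift of a whole array cancels in the balance.

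AD replicate 4 held 0.31 log2 more Camk2a and 0.29 log2 more Camk2b than the mean of the other AD arrays. The signal of both genes was thus higher in this array by nearly the same amount, and its balance of 0.27 log2 lay inside the range of the other AD arrays. Without it the balance differed by -1.99 log2 (AD minus AI). Relative to the AI arrays, the excess in AD replicate 4 made the Camk2a difference smaller and the Camk2b difference larger. The other CaMKII isoforms did not share it, with 0.030 log2 for Camk2d and 0.0094 log2 for Camk2g, while Camk1d was lower in AD replicate 4 by -0.24 log2.

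**Figure D2:**
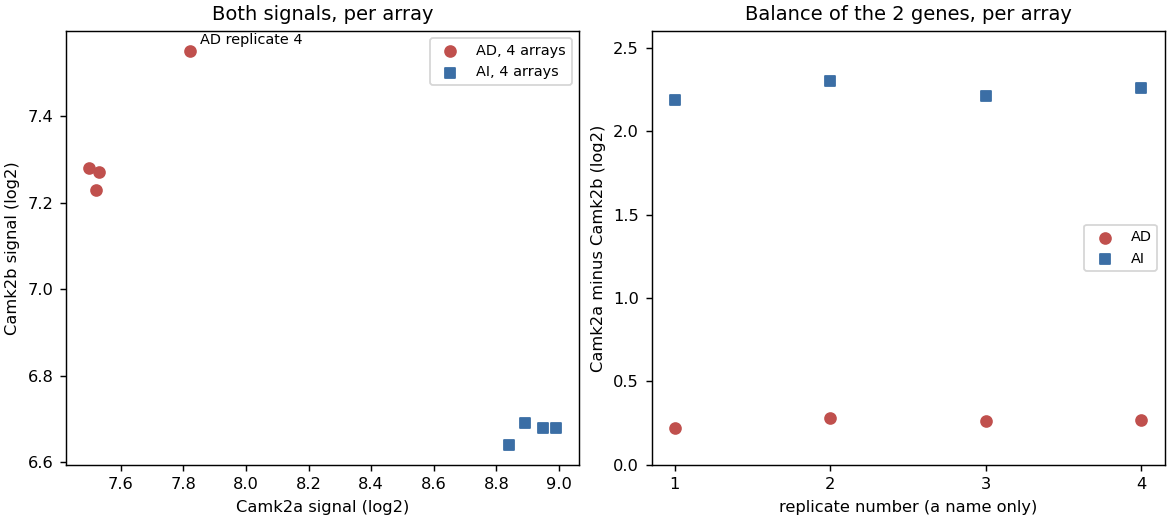
Left, Camk2b signal against Camk2a signal (both log2) in each array, AD as circles and AI as squares. Right, Camk2a minus Camk2b (log2) for each array by replicate number. AD replicate 4 is displaced along both axes at left, and at right its balance of 0.27 log2 lies with the other AD arrays, which are at 0.22 to 0.28 against 2.19 to 2.30 in AI arrays.

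The broadly expressed CaMKII isoforms differed little, and both were slightly higher in AI cells. Camk2d, the delta isoform, had 9.96, 9.90, 9.95 and 9.96 log2 in AD replicates 1 to 4 and 10.18, 10.15, 10.11 and 10.17 log2 in AI replicates 1 to 4. Camk2g, the gamma isoform, had 9.30, 9.44, 9.38 and 9.39 log2 in the AD arrays and 9.76, 9.68, 9.65 and 9.72 log2 in the AI arrays. The phenotypes did not overlap for either gene, although the gaps between them were only 0.14 log2 for Camk2d and 0.20 log2 for Camk2g. The log2 difference was -0.21 (standard error 0.05) for Camk2d, which is 1.16-fold, and -0.32 (standard error 0.05) for Camk2g, which is 1.25-fold. Neither was called. With median centring these differences were -0.13 and -0.24 log2.

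Camk4, the nuclear kinase of the CaMKI and CaMKIV cascade, had 7.68, 7.70, 7.47 and 7.56 log2 in AD replicates 1 to 4. In AI replicates 1 to 4 it had 8.18, 8.17, 8.15 and 8.10 log2. Every AI array lay above every AD array, by at least 0.41 log2. The means were 7.60 ± 0.11 log2 for AD and 8.15 ± 0.03 log2 for AI (± SD over 4 arrays). The log2 difference of -0.55 (standard error 0.06) is 1.46-fold and lies just short of the 1.5-fold limit, so that Camk4 was not called.

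Camk1, a cytoplasmic kinase of the same cascade, had 8.10, 8.24, 8.27 and 8.04 log2 in AD replicates 1 to 4 and 8.39, 8.70, 8.41 and 8.33 log2 in AI replicates 1 to 4. The phenotypes were parted by 0.064 log2 only, and AI replicate 2 lay above the rest. Its log2 difference was -0.29 (standard error 0.09), and -0.21 without AI replicate 2. Camk1d, the delta isoform of CaMKI, had 9.31, 9.46, 9.35 and 9.13 log2 in the AD arrays and 9.37, 9.21, 9.35 and 9.51 log2 in the AI arrays. These overlapped, and the log2 difference of -0.046 (standard error 0.09) turned to 0.031 after median centring, to 0.014 without AD replicate 4 and to 0.0041 without AI replicate 4.

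Camkk2, which phosphorylates CaMKI, CaMKIV and also the energy sensor AMPK, had 7.67, 7.68, 7.60 and 7.74 log2 in AD replicates 1 to 4 and 7.70, 7.64, 7.43 and 7.42 log2 in AI replicates 1 to 4. The phenotypes overlapped, and AI replicates 1 and 2 lay among the AD arrays. The log2 difference was 0.13 (standard error 0.08).

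Among the 8 kinases, 1 was called higher in AD cells, where 1.39% of all clusters were, and 1 was called lower, where 2.53% were. At any fold, 1 had an adjusted p under 0.05 toward AD cells (8.5% of all clusters) and 4 toward AI cells (9.62%). For 6 of the 8, all arrays of one phenotype lay above all of the other, as for 22.1% of all clusters. Since the family was chosen with these differences in view, nothing is read from these counts. The median log2 difference over the 8 was -0.25, against -0.0008 over all clusters and 0.014 over all genes with a single symbol. From the lowest to the highest, the log2 differences ran from -1.33 for Camk2a over Camk4, Camk2g, Camk1, Camk2d, Camk1d and Camkk2 to 0.66 for Camk2b. In this order Camk2g minus Camk1 was -0.026 log2 and Camk2d minus Camk1 was 0.086 log2, both smaller than the standard error of Camk1 (0.09).

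Around the kinases, 158 of 165 further genes in 9 lists were measured, and 7 of them were called, which is 4.43% against the 3.93% of all clusters. The calls were 2 higher in AD cells and 5 lower. At any fold, an adjusted p under 0.05 was reached by 15 with higher signal in AD cells and by 33 with higher signal in AI cells, where 8.5% and 9.62% of all clusters did. Within the lists, calls fell on calcium pumps and channels and on single genes elsewhere.

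Camkv, a relative of the CaM kinases that binds calmodulin on vesicles and lacks kinase activity, was the called gene among 16 other kinases of the group. It had 7.66, 7.86, 7.67 and 7.85 log2 in AD replicates 1 to 4 and 6.55, 6.63, 6.49 and 6.48 log2 in AI replicates 1 to 4, with no overlap. It rose 2.33-fold in AD cells, a log2 difference of 1.22 (standard error 0.07, adjusted p = 9.91e-06 from limma). The other 15 were not called, and 4 of the 16 kinases passed toward each phenotype at any fold (8.5% of all clusters toward AD cells and 9.62% toward AI cells). Of these, Phkg2, a catalytic subunit of the calmodulin-regulated phosphorylase kinase, had the most negative log2 difference with -0.50 (adjusted p = 0.00096 from limma). The median of the list was 0.0008 log2. Camk1g and Pnck, which are CaMKI isoforms outside the 9 genes, had 0.027 and -0.23 log2.

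The calmodulin genes Calm2 and Calm3 differed little between the phenotypes. Calm2 had a log2 difference of -0.18 (standard error 0.06, adjusted p = 0.0525 from limma), and Calm3 had -0.14 (standard error 0.06, adjusted p = 0.175 from limma), both at signals near 11 log2. Calm2 has 2 clusters, of which the brightest was used, and their mean differed by -0.089 log2 (adjusted p = 0.303 from limma). Without AD replicate 4 Calm2 had -0.21 log2 (adjusted p = 0.0208), and over all settings tried its adjusted p in these fits ran from 0.0143 to 0.303. Of 12 calmodulins, calmodulin-like genes and calmodulin-binding buffers measured, Calml4, a calmodulin-like protein, was called lower in AD cells and none was called higher. Calml4 had 6.59, 6.74, 6.68 and 6.73 log2 in AD replicates 1 to 4 and 7.47, 7.44, 7.50 and 7.33 log2 in AI replicates 1 to 4, without overlap. It fell in AD cells with a log2 difference of -0.75 (standard error 0.06, adjusted p = 6.77e-05 from limma). Nrgn, neurogranin, which holds calmodulin at low calcium, had 0.38 log2 (adjusted p = 0.00746 from limma), under 1.5-fold. Pcp4, also on this list, went the other way without overlap, with -0.28 log2 (adjusted p = 0.0201 from limma). Gap43 had -0.037 log2 (adjusted p = 0.706 from limma). Over the whole list the median was 0.0031 log2, so the list showed no common direction.

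The brakes on the kinases were not called. Camk2n1 and Camk2n2, small proteins that inhibit CaMKII, had log2 differences of -0.29 each (standard errors 0.06 and 0.09, adjusted p = 0.0128 and 0.0492 from limma). Camk2n2 was no longer under 0.05 after median centring (adjusted p = 0.18), in the analysis of variance (0.102), or when AD replicate 1, 3 or 4 or AI replicate 1, 2 or 3 was left out (0.082 to 0.129). Camk2n1 was no longer under 0.05 after median centring (adjusted p = 0.0614). The arrays of Camk2n2 overlapped because AI replicate 4 lay at 8.20 log2, whereas those of Camk2n1 were parted by 0.17 log2. In limma, none of the 10 inhibitors and phosphatases was called, nor by analysis of variance without moderation, and 5 had an unadjusted p under 0.05, as had 30.1% of all clusters. Of calcineurin, the phosphatase that calmodulin also activates, the catalytic subunits Ppp3ca, Ppp3cb and Ppp3cc had -0.036, 0.055 and 0.22 log2 (adjusted p = 0.761, 0.571 and 0.0599 from limma). Ppp3ca turned to 0.040 log2 after median centring. None of the 14 calcineurin and NFAT genes was called in limma or by analysis of variance, and 4 had an unadjusted p under 0.05.

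The partners and targets of the kinases were mostly not called. Of 21 scaffolds and substrates of CaMKII, none was called in limma or by analysis of variance. An unadjusted p of limma under 0.05 was reached by 8 of them, against 30.1% of all clusters. At any fold 2 had an adjusted p under 0.05 toward AD cells (8.5% of all clusters) and 4 toward AI cells (9.62%). Grin2a, Grin2b and Gria1, receptor subunits that CaMKII regulates at synapses, lay below the median of every array. Of 16 genes for CREB, its coactivators, class IIa histone deacetylases and Mef2 factors, Hdac9 was called higher in AD cells and none lower. Of all clusters, 1.39% were called higher and 2.53% lower. Among the 16, 2 passed at any fold toward AD cells (8.5% of all clusters) and 4 toward AI cells (9.62%). An unadjusted p of limma under 0.05 was reached by 9 of them, against 30.1% of all clusters. Hdac9 is a deacetylase that leaves the nucleus when CaM kinases phosphorylate it. It had 8.19, 8.31, 8.08 and 7.94 log2 in AD replicates 1 to 4 and 6.94, 7.03, 6.97 and 6.81 log2 in AI replicates 1 to 4, with no overlap. It rose 2.29-fold in AD cells, a log2 difference of 1.20 (standard error 0.09, adjusted p = 3.68e-05 from limma). The related Hdac5 and Hdac7 had -0.37 and -0.38 log2 (adjusted p = 0.00221 and 0.00487 from limma), in the opposite direction and under 1.5-fold.

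None of 21 genes that CREB induces was called in limma or by analysis of variance, with 11 at an unadjusted p under 0.05 against 30.1% of all clusters. At any fold 2 of them passed with the higher signal in AD cells and 5 with the higher signal in AI cells. Of all clusters, 8.5% and 9.62% did so. Their differences ran from -0.48 log2 for Dusp1, a phosphatase of MAP kinases, to 0.45 log2 for Gem, a small GTPase, and the median was 0.029 log2. None of 12 genes for AMPK and its partners was called in limma or by analysis of variance, and the median was 0.13 log2. An unadjusted p of limma under 0.05 was reached by 7 of them. At any fold 4 had an adjusted p under 0.05 toward AD cells (8.5% of all clusters) and 1 toward AI cells (9.62%).

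Of 36 channels and pumps that set the calcium supply, 4 were called lower in AD cells and none was called higher, where 2.53% and 1.39% of all clusters were. Median centring left 2 of these calls. Atp2a3, a pump that loads calcium into the endoplasmic reticulum, had 7.01, 7.28, 7.13 and 7.45 log2 in AD replicates 1 to 4 and 8.09, 8.09, 8.17 and 8.03 log2 in AI replicates 1 to 4. Atp2b3, a pump of the plasma membrane, had 7.62, 7.77, 7.59 and 7.80 log2 in the AD arrays and 8.56, 8.66, 8.54 and 8.49 log2 in the AI arrays. Both fell in AD cells, without overlap, by log2 differences of -0.88 (standard error 0.09, adjusted p = 0.000256 from limma) and -0.87 (standard error 0.07, adjusted p = 6.45e-05 from limma). Itpr2, a receptor for inositol trisphosphate that releases stored calcium, fell with -0.61 (standard error 0.06, adjusted p = 0.000286 from limma). Orai3, a channel for calcium entry, fell with -0.60 (standard error 0.08, adjusted p = 0.000837 from limma), and it is named after its value was seen. Itpr2 and Orai3 lay close to the 1.5-fold limit and were not called after median centring, with -0.53 each. Itpr2 was also not called after quantile normalization (-0.54) or without AI replicate 4 (-0.57), and Orai3 was not called without AD replicate 3 (-0.57) or without AI replicate 3 (-0.55). The median of the list was -0.0077 log2, and 15 of its genes lay below the median of every array.

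**Figure D3:**
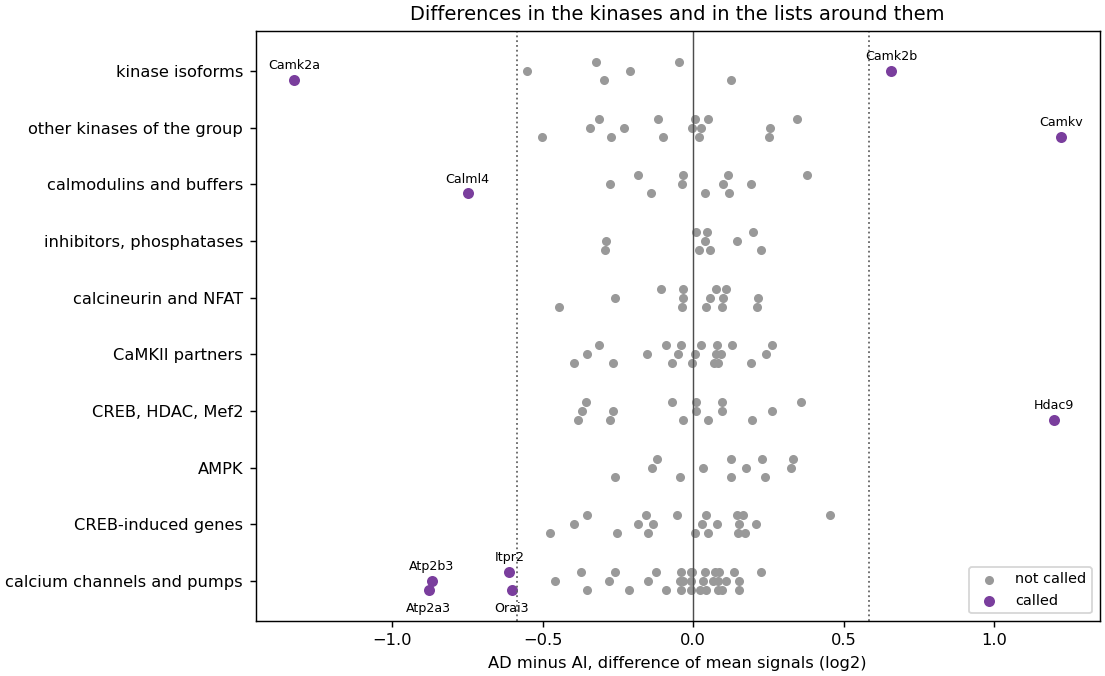
Log2 difference of AD minus AI for the 8 kinase genes and for the genes of the 9 lists, 1 point per gene, with called genes named and the 1.5-fold limits as dotted lines. Vertical scatter within a row has no meaning. Camk2a at -1.33 and Camk2b at 0.66 stand on opposite sides, and Camkv at 1.22 and Hdac9 at 1.20 lie farthest to the right.

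Genes outside the kinases and all lists, 19733 in number, were ranked by how near their profile over the 8 arrays lay to that of Camk2a. Euclidean distance was used after each gene was centred on its mean. The nearest of these genes were Timp3, Adgrg1 and Ace, at 0.17, 0.22 and 0.25 log2. Timp3 is an inhibitor of matrix proteases, Adgrg1 an adhesion receptor coupled to G proteins and Ace the angiotensin-converting enzyme. Their log2 differences were -1.29, -1.26 and -1.21. In AD replicate 4 they had 6.93, 7.43 and 8.10 log2, above the other AD arrays of the same gene, as Camk2a had. Among the same genes, those nearest to Camk2b were Nsg2, Tns1 and Plscr4, at 0.18, 0.21 and 0.22 log2. Nsg2 is a protein of neuronal endosomes, Tns1 a protein of focal adhesions and Plscr4 a member of the phospholipid scramblase family. Their log2 differences were 0.66, 0.71 and 0.64, and AD replicate 4 was again the highest array, at 8.91, 8.30 and 6.63 log2. Tns1 has 6 clusters, of which the brightest was used. All these profiles share the same 8 arrays, and the likeness is mostly the step between the phenotypes. The genes were chosen on all 8 arrays, AD replicate 4 included, so the shared excess in that array is part of the choice.

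**Figure D4:**
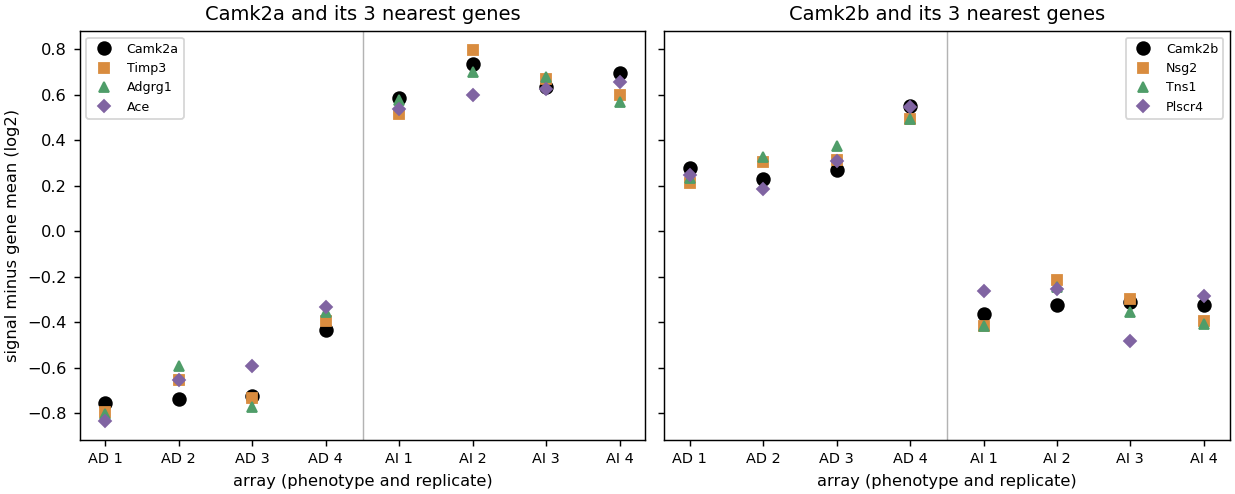
Signal minus the mean of the gene (log2, vertical axis) in each array (horizontal axis) for Camk2a with Timp3, Adgrg1 and Ace at left and for Camk2b with Nsg2, Tns1 and Plscr4 at right. AD replicate 4 is the highest AD array for all of them, with Camk2a at 7.82 log2 and Camk2b at 7.55 log2 before centring. It was among the arrays on which the nearest genes were chosen.

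Camk2a is known as a gene of excitatory forebrain neurons, and markers of these cells had low signals. All 6 measured of 7 (Slc17a7, Neurod6, Tbr1, Emx1, Neurod2 and Bcl11b) lay below the median of every array, with mean signals of 5.19 to 5.32 log2 in AD arrays and 5.28 to 5.34 log2 in AI arrays. Slc17a7, the vesicular glutamate transporter, had -0.48 log2 (adjusted p = 0.000832 from limma) in the direction of Camk2a, with means of 5.35 log2 (AD) and 5.83 log2 (AI). The 6 markers had no common direction, with 3 higher and 3 lower in AD cells and a median of 0.035 log2. Tbr1 went against Camk2a without overlap, with 0.18 log2 (adjusted p = 0.081 from limma). The mean of the 16 neuroblastoma markers was 9.38 to 9.53 log2 in AD arrays and 8.92 to 8.98 log2 in AI arrays, and 5 of them were called higher in AD cells, as were 1.39% of all clusters. None was called lower, and 4 of the 16 had lower signals in AD cells, among them Chgb, a granule protein, with -0.49 log2 (adjusted p = 0.000204 from limma) and Gata2 with -0.23 log2 (adjusted p = 0.0376 from limma). Their part in the differences of the kinases was not tested. All 5 immune markers measured, 5 of 6 glial markers and 3 of 6 fibroblast markers lay below the median of every array, and none of the markers measured in these 3 lists was called. Fbln1, a matrix protein on the fibroblast list, was above the median of every array, with means of 10.62 log2 (AD) and 10.85 log2 (AI) and a log2 difference of -0.22 (adjusted p = 0.0141 from limma).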

How the data were processed

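RNA was extracted with the RNeasy kit, amplified and labelled with biotin, and each of the 8 samples was hybridized to its own Affymetrix mouse Gene ST array by the authors. The deposited values are log2 signals per transcript cluster, which the authors made with GCRMA in Partek (version 6.5 in the submitters' notes, other versions in the methods, which also name further normalizations that were not used here). The genome build was not given in the sources used here. Arrays hold no counts, so the number of arrays limits the precision.

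Values were used as deposited. Genes were named by the platform's annotation, in which 21789 clusters have 1 symbol, 1621 have several and 12146 have none used here. The brightest cluster stood for a gene. AD and AI arrays were compared over all clusters with lmFit and eBayes of limma 3.58.1 in R 4.3.3, without covariates, p-values were adjusted over all clusters by the Benjamini-Hochberg method, and tables were made in Python 3.11.15. The script was tested on simulated data. The members and lists were chosen with earlier results of these data known. Genes named by rule are all members, up to 3 called genes per list and direction, and the 3 unlisted genes nearest Camk2a and Camk2b. The rule also names Calm2, Calm3, Camk2n1, Camk2n2 and the calcineurin catalytic subunits. Further genes, such as Phkg2, Nrgn, Hdac5, Hdac7, Dusp1, Gem, Slc17a7, Chgb and Fbln1, are named outside this rule. Their values were known when they were named. Alternatives were other scalings, a filter on dim clusters, other variance models, weighted arrays, a block for replicate number, other thresholds, the mean of a gene's clusters and leaving out each array.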

Additional observations from a re-analysis of the deposited data

Results flagged for a closer look

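In some groups of 4 arrays 1 array stood far from the rest, by Dixon's ratio of its gap to the whole range. This was so for 7 of 46 groups tested over 23 items, where chance flags about 1 group in 20. AD replicate 4 stood apart for Camk2a, at 7.82 log2 against 7.50 to 7.53 in the other AD arrays, for Camk2b, at 7.55 against 7.23 to 7.28, and for Itpr2, at 6.39 against 6.27 to 6.28. AI replicate 1 stood apart for Camk2b, at 6.64 against 6.68 to 6.69, a distance of a few hundredths in a very narrow group. AI replicate 3 stood apart for Ppp3cb, at 10.22 against 10.31 to 10.32, and for Orai3, at 8.75 against 8.51 to 8.55. AI replicate 4 stood apart for Camk2n2, at 8.20 against 8.40 to 8.43. The cause was not tested.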

How the results depend on the processing

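Camk2a and Camk2b were both called under quantile normalization, median centring, the filter on dim clusters, each variance model, array weights and the stricter threshold. The family was chosen by its differences in these arrays, so its calls under any setting are a description and no test. Leaving out single arrays gave 1 to 2 called kinases, with 1 without AD replicate 4, where Camk2b had 0.58 log2. The balance of Camk2a and Camk2b differed by -1.98 log2 (AD minus AI), by -2.05 after quantile normalization and by -2.0 to -1.96 when single arrays were left out. At any fold, 5 kinases, 48 of the 158 surrounding genes and 6444 of all clusters passed the adjusted p of limma, against 2, 7 and 1396 at 1.5-fold. Camk1d reversed to 0.031 log2 after median centring, 0.014 without AD replicate 4 and 0.0041 without AI replicate 4, and Ppp3ca to 0.040 after median centring. Over the left-out arrays Camk1d ran from -0.096 to 0.014. The cause was not tested. Replicate numbers did not pair the arrays, since deviations of same-numbered arrays correlated at -0.112, 0.078, 0.005 and -0.175, and with the replicate number as a block 2 kinases, 7 surrounding genes and 1352 clusters were called and the balance was -1.98. Dim clusters near the array median have ratios that background limits.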
